A study of Arabidopsis thaliana with 22 samples.

Results

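The genes described here are 119 genes of *Arabidopsis thaliana* whose transcript levels in *lrx345* seedlings were at least 3 times those of the wild type (WT) at each of 4 times, namely before NaCl treatment and after 6, 24 and 72 h of it. They were chosen by the measured transcript levels themselves. Counts of sequenced fragments were expressed per 1000000 counts of the library (CPM) and averaged over the libraries of a group. Then 1 CPM was added to both means before the ratio of *lrx345* to WT was taken. The count table held 33602 genes, and 19116 of them had a mean of at least 20 counts over the 22 libraries. Of these 19116, 119 genes (0.623%) had the ratio at all 4 times. This ratio chose the genes, so it is given as a description with no test. Changes between salt and 0 h within a genotype, on which the rule set no sign, were tested.

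Total RNA of whole 10-day-old seedlings was sequenced to find which transcripts responded to salt in *lrx345* and in WT. The *lrx345* line is a triple mutant of *LRX3* (*AT4G13340*), *AT3G24480* and *AT4G18670*, which encode leucine-rich repeat extensins of the cell wall, and WT carries none of the 3 mutations. The groups were *lrx345* and WT before NaCl treatment, with 2 libraries each, and *lrx345* and WT after 6, 24 and 72 h in NaCl, with 3 libraries each; the concentration is stated as 150 mM in the methods for the 6 h treatment. The methods describe the replicates as biological but no source used here says whether they came from separate cultures, so p-values measure the spread between these libraries.

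LRX proteins anchor in the cell wall, bind the small RALF peptides and act with the receptor kinase FERONIA, which senses the state of the wall. Many of the genes below belong to defence pathways: jasmonate, made from membrane lipids after wounding or insect attack, frees MYC transcription factors from JAZ repressors, whereas salicylate acts mainly against biotrophic pathogens. WRKY factors bind the W box core TTGAC, MYC factors the G box CACGTG and many ERF factors the GCC box GCCGCC. Leaves of the mustard family also keep beta-glucosidases (myrosinases and enzymes of ER bodies) apart from their glucosinolate substrates until tissue is damaged, and lectins of the jacalin and myrosinase-binding type associate with these enzymes.

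The sequence before the start of each gene was searched for these motifs because the genes share a pattern of transcript level. In the 250 bases before the gene start of the RefSeq annotation (TAIR10.1), read on both strands, TTGAC was present for 78 of the 119 genes (65.5%), against 44.5% of all 32834 genes with such a window and 45.3% of those with a mean of at least 20 counts. At least 2 matches were present for 33 of the 119 genes (27.7%), against 13.7% of all windows. The G box CACGTG was present for 11 of the 119 genes (9.24%), against 5.83% of all windows and 7.47% of those of genes with a mean of at least 20 counts. The GCC box GCCGCC was found for 4 of the 119, *PDF1.2*, *WRKY75*, *WRKY33* and *STZ* (3.36%), against 1.98% of all windows. TGACG, which can overlap TTGAC, was present for 24 of the 119 (20.2%), against 18.2%, and CATGTG for 20 (16.8%), against 10.8%. These shares are descriptions of letters in a window and were not tested.

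Windows of 5 genes are printed, 3 of those with the most W box cores, the one with a pair of G boxes and that of the defensin gene with a GCC box, chosen after the matches were counted; each reads 5′ to 3′ on the strand of its gene, and capitals mark the motif on either strand. *PROPEP3* (AT5G64905) encodes the precursor of a danger-signal peptide, and its window, chr5:25939312-25939561 on the plus strand, held 4 TTGAC matches. *SARD1* (AT1G73805) encodes an activator of salicylate synthesis genes, and its window, chr1:27749249-27749498 on the minus strand, also held 4. *AT1G26380* encodes a berberine bridge-type oxidase of the indole defence pathway, with 4 matches in chr1:9128569-9128818 on the minus strand. *AT3G28220*, a TRAF-like family gene, had 2 G boxes in chr3:10523931-10524180 on the plus strand. *PDF1.2* (AT5G44420), a jasmonate- and ethylene-responsive defensin gene, had 1 GCC box in chr5:17907639-17907888 on the minus strand.
PROPEP3: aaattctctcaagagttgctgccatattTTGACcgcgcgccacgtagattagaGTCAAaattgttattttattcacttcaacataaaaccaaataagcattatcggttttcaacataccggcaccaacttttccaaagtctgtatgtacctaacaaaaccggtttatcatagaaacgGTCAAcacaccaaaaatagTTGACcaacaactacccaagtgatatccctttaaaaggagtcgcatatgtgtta
SARD1: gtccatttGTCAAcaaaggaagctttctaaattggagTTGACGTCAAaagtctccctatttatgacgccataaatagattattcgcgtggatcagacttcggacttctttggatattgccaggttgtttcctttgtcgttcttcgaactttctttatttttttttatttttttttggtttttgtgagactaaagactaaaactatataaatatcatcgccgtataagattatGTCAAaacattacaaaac
AT1G26380: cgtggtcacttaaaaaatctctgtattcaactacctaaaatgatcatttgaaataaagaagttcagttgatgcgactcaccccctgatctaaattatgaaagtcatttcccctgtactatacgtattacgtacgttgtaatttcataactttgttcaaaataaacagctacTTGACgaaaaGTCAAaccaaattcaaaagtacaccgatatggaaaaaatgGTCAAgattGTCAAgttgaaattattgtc
AT3G28220: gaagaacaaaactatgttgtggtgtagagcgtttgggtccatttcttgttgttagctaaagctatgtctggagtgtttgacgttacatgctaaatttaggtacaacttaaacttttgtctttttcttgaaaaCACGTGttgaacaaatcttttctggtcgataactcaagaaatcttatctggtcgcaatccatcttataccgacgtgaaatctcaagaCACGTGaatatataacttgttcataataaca
PDF1.2: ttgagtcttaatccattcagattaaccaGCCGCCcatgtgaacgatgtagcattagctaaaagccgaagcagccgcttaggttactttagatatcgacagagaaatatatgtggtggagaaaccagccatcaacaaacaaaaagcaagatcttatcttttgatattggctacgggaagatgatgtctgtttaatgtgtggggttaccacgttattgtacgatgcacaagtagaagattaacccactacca

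Libraries held 7413461 to 15047080 counts in genes, with a median of 11799160.5. As a check of labels, *LRX3* averaged 26.3 CPM in *lrx345* and 105 CPM in WT at 0 h, *AT3G24480* 91.5 CPM in *lrx345* and 138 CPM in WT, and *AT4G18670* 20.1 CPM in *lrx345* and 121 CPM in WT, with no overlap between genotypes at any time. The 6 leaf markers summed to 5341 to 6254 CPM in *lrx345* and 7558 to 7631 CPM in WT at 0 h, and to 5016 to 6100 CPM in *lrx345* and 12191 to 13519 CPM in WT at 72 h. The 6 root markers summed to 154 to 211 CPM in *lrx345* and 192 to 196 CPM in WT at 0 h, and to 12.2 to 21.6 CPM in *lrx345* and 208 to 244 CPM in WT at 24 h. None of these 12 markers was at 0 in any group, and their part in the results was not tested; in whole seedlings fewer cells of a type and less RNA per cell cannot be told apart. Seedlings kept without salt to the later times were not analysed here, so hours in salt, age and time of day cannot be told apart: the morning-phased clock gene *CCA1* averaged 2.55, 14.5, 131 and 191 CPM in *lrx345* and 3.61, 8.95, 174 and 223 CPM in WT at 0, 6, 24 and 72 h. Single libraries stood apart for the 119 genes: *lrx345* 0 h replicate 2 was the higher of its group for 107 of them (43.9% of the 19116 genes), and *lrx345* 6 h replicate 1 the highest of its group for 103 (42.5%), WT 72 h replicate 1 for 103 (36.7%), WT 6 h replicate 1 for 87 (35.0%) and *lrx345* 24 h replicate 1 for 72 (29.1%).

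Before and after salt, the 119 genes took a far larger part of the transcript pool in *lrx345* than in WT. The rule that chose them fixed this direction, so the shares are a description and nothing is read from it. At 0 h they made up 0.807 to 1.09% of all counts in *lrx345* libraries and 0.0790 to 0.0831% in WT libraries. The share was 1.61 to 2.06% in *lrx345* and 0.150 to 0.193% in WT at 6 h, 2.75 to 3.25% in *lrx345* and 0.151 to 0.175% in WT at 24 h, and 2.98 to 3.05% in *lrx345* and 0.311 to 0.648% in WT at 72 h. A single gene, *BGLU18*, gave 22 to 25.3% of the member counts in *lrx345* and 7.64 to 9.99% in WT at 0 h, and 27.3 to 30.5% in *lrx345* and 13.8 to 16.2% in WT at 24 h.

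**Figure D1:**
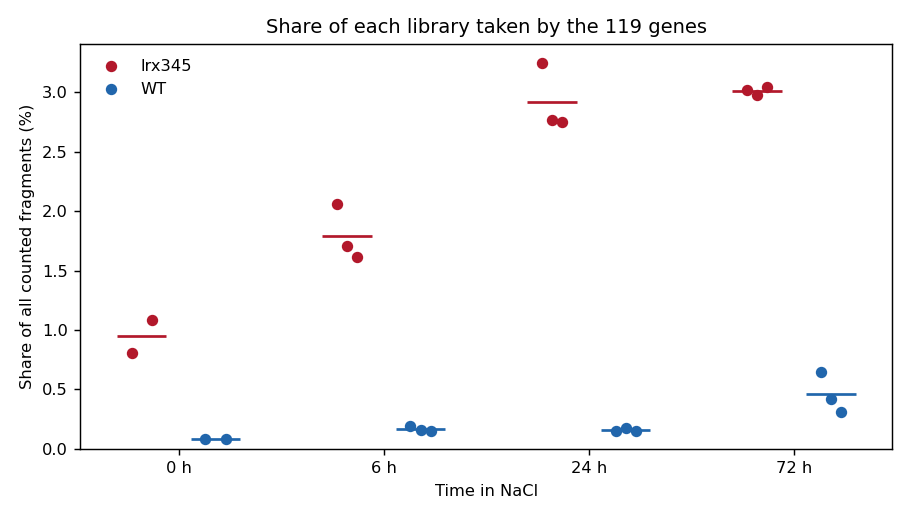
Share of all counted fragments (%, y axis) taken by the 119 genes in each library by hours in NaCl (x axis); points are libraries of *lrx345* (red) and WT (blue) and bars are group means. The *lrx345* libraries lie between 0.807 and 3.25% and the WT libraries between 0.0790 and 0.648%, a direction fixed by the rule that chose the genes.

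The median ratio of *lrx345* to WT was 6.01, 6.38, 10.9 and 5.01 at 0, 6, 24 and 72 h. The median over the 19116 genes was 0.944, 0.959, 0.886 and 0.883. The highest ratio at these times was 111, 142, 192 and 34.5. For 61 genes the ratio was largest at 24 h, and for 56 it was lowest at 72 h, counts that were not taken over all genes. The typical gene of the group averaged 31.8 CPM in *lrx345* and 2.32 CPM in WT at 0 h (medians over the 119), 54.8 CPM in *lrx345* and 5.93 CPM in WT at 6 h, 75.3 CPM in *lrx345* and 4.56 CPM in WT at 24 h, and 73.6 CPM in *lrx345* and 11.2 CPM in WT at 72 h. Every *lrx345* library was above every WT library for all 119 genes at each time, against 23, 22.2, 21.9 and 25% of the 19116 genes at 0, 6, 24 and 72 h, and nothing is read from this since the rule used it. A ratio of at least 3 at a single time was met by 2.1, 3.98, 5.28 and 5.06% of the 19116 genes at 0, 6, 24 and 72 h. Without WT 72 h replicate 1 the median ratio at 72 h was 6.14, and the ratio was larger for 112 of the 119 genes.

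**Figure D2:**
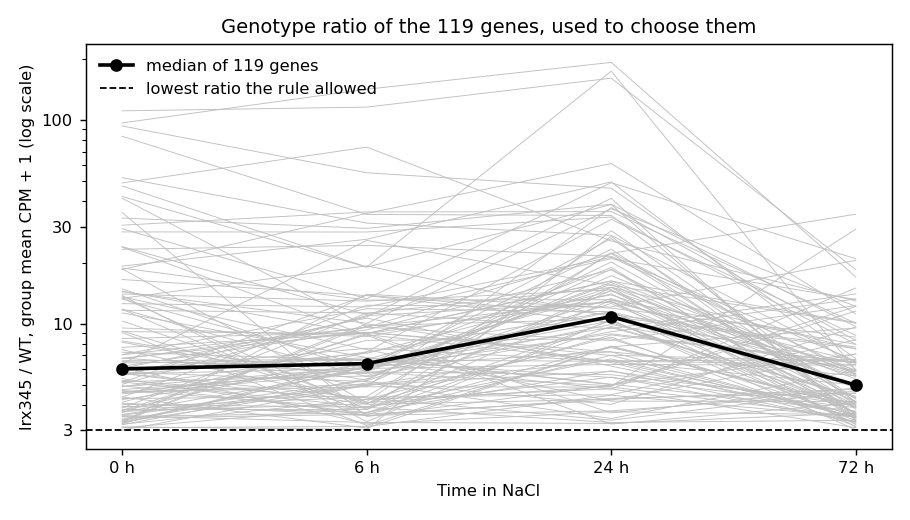
Ratio of *lrx345* to WT (group mean CPM + 1, log axis) against hours in NaCl; grey lines are the 119 genes, the black line is their median and the dashed line is the lowest ratio allowed. The median was 6.01, 6.38, 10.9 and 5.01 at 0, 6, 24 and 72 h.

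At the edge of the threshold, the lowest of the 4 ratios was 3.01 for *WRKY8*, 3.02 for *AT1G26380* and 3.04 for *NUDT8* just inside, and just under 3 for *ERF13*, 2.99 for *WRKY40* and 2.98 for *AT3G18250* just outside.

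The genes with the largest lowest ratio were *JAL23* and *MBP1*, described here with other lectin and beta-glucosidase genes of the group. *JAL23*, a jacalin-related lectin, had 175 and 187 CPM in *lrx345* at 0 h, 283, 242 and 246 CPM at 6 h, 540, 304 and 291 CPM at 24 h, and 214, 147 and 186 CPM at 72 h. The WT libraries had 0.915 and 0.363 CPM at 0 h, 1.75, 0.749 and 1.19 CPM at 6 h, 1.07, 1.75 and 1.26 CPM at 24 h, and 9.15, 9.93 and 7.67 CPM at 72 h. The genotypes did not overlap at any time, and the WT libraries were higher at 72 h than at any earlier time. Every adjusted p below comes from edgeR (quasi-likelihood F test, Benjamini-Hochberg over 21831 genes), and changes are log2 relative to 0 h with their SE. *JAL23* rose in WT at 72 h by 3.85 ± 0.47 (adjusted p = 5.41e-07), and rose in *lrx345* at 24 h by 1.17 ± 0.21 (adjusted p = 7.7e-05). Its change in *lrx345* at 72 h was 0.19 ± 0.21 (adjusted p = 0.426).

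*MBP1*, a myrosinase-binding protein, had 321 and 354 CPM in *lrx345* at 0 h, 813, 603 and 611 CPM at 6 h, 1007, 669 and 632 CPM at 24 h, and 289, 235 and 240 CPM at 72 h. The WT libraries had 2.44 and 2.54 CPM at 0 h, 4.15, 4.12 and 3.06 CPM at 6 h, 2.23, 3.88 and 2.92 CPM at 24 h, and 18, 14.2 and 9.91 CPM at 72 h. The *lrx345* levels were highest at 6 and 24 h and the WT levels at 72 h. *MBP1* rose in *lrx345* at 6 h by 0.97 ± 0.20 (adjusted p = 0.000297) and at 24 h by 1.29 ± 0.20 (adjusted p = 1.02e-05), and in WT at 72 h by 2.55 ± 0.31 (adjusted p = 5.64e-07). Its neighbour *MBP2* had ratios of 28.3, 28.2, 33.4 and 7.94 at 0, 6, 24 and 72 h.

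*BGLU18*, the main beta-glucosidase of leaf ER bodies, had 2043 and 2389 CPM in *lrx345* at 0 h, 3797, 3234 and 3387 CPM at 6 h, 9913, 7555 and 7797 CPM at 24 h, and 5987, 5634 and 5128 CPM at 72 h. Levels in WT were 83.0 and 60.4 CPM at 0 h, 111, 84.5 and 95.8 CPM at 6 h, 221, 242 and 245 CPM at 24 h, and 587, 644 and 429 CPM at 72 h. The lowest *lrx345* library at 0 h was above the highest WT library at 72 h. *BGLU18* rose at 24 h by 2.02 ± 0.18 in *lrx345* (adjusted p = 2.11e-09) and 1.77 ± 0.18 in WT (adjusted p = 8.86e-08), and at 72 h by 1.51 ± 0.17 in *lrx345* (adjusted p = 5.28e-08) and 3.01 ± 0.19 in WT (adjusted p = 1.69e-11). *BGLU27*, another beta-glucosidase, had 4.45 and 10.2 CPM in *lrx345* and 0.153 and 0.145 CPM in WT at 0 h. Its level at 6 h was 42.1, 28.3 and 32.7 CPM in *lrx345* and 5.46, 4.68 and 2.89 CPM in WT. Its WT level at 6 h was 29.5 times that at 0 h in pooled counts, with a 95% counting interval of 11.3 to 109.7, from 159 and 4 counts.

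A pair of neighbouring mannose-binding lectin genes fell after 0 h in *lrx345*. *AT1G52130* had 18.8 and 43.1 CPM in *lrx345* at 0 h, 12.7, 6.21 and 6.70 CPM at 6 h, 3.56, 2.42 and 2.56 CPM at 24 h, and 5.40, 4.14 and 5.32 CPM at 72 h, against 0.0727 to 0.926 CPM over all WT libraries. Every salt-treated *lrx345* library was below both at 0 h, with changes of −3.34 ± 0.37 at 24 h (adjusted p = 1.01e-07) and −2.47 ± 0.33 at 72 h (adjusted p = 8.29e-07). *AT1G52120* fell in *lrx345* by 1.47 ± 0.26 at 6 h (adjusted p = 7.16e-05) and 1.88 ± 0.28 at 24 h (adjusted p = 6.05e-06). In WT it had 16 and 3 counts at 0 h and 2, 0 and 2 counts at 6 h, too few to read a change from.

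**Figure D3:**
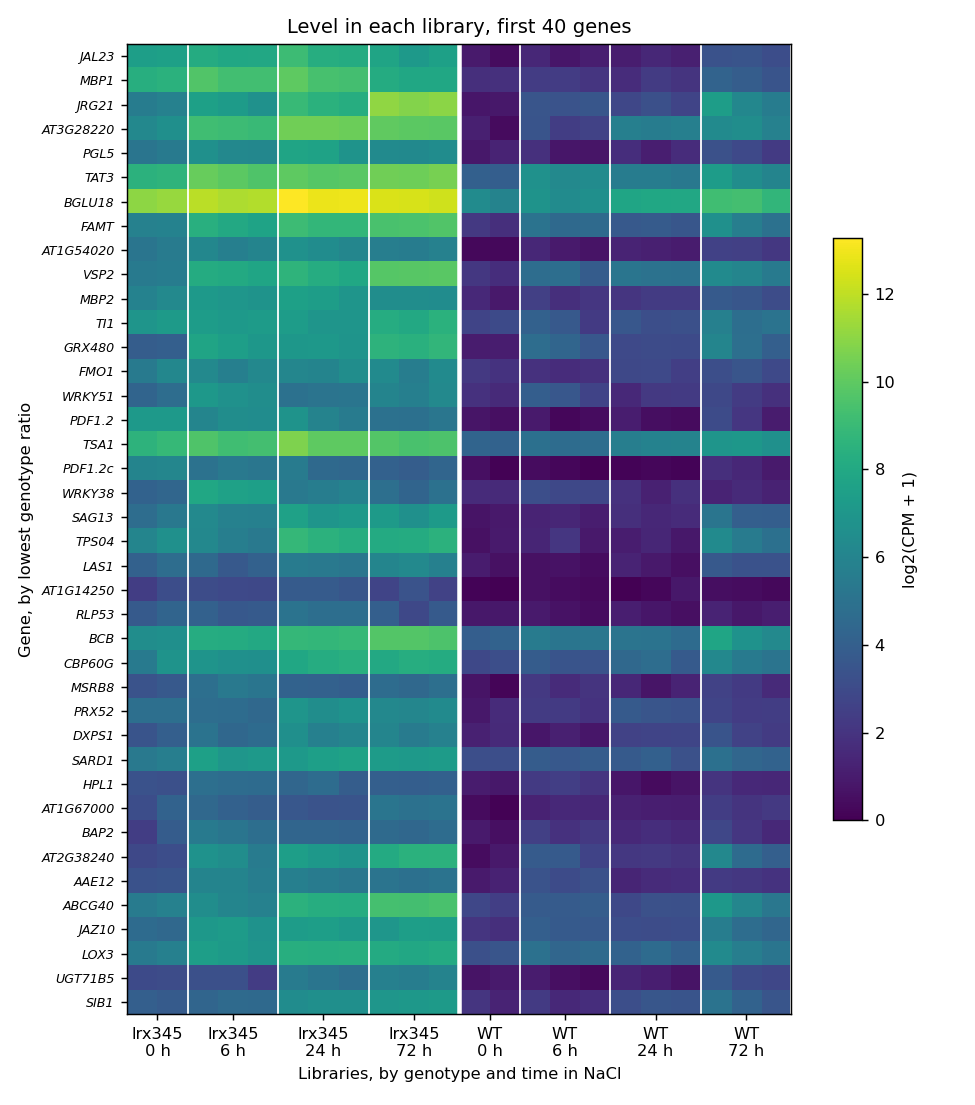
Level, as log2(CPM + 1) (colour), of the 40 genes with the largest lowest ratio (rows) in each of the 22 libraries (columns, *lrx345* left, WT right, by hours in NaCl). *BGLU18* spans 2043 to 9913 CPM in *lrx345* and 60.4 to 644 CPM in WT. Of all 119 genes 94 have their highest WT mean at 72 h, a count not taken over all genes.

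More of the 119 genes rose than fell from 0 h in both genotypes at each later time. At 6 h, 65 rose in *lrx345*, against 23.9% of the 21831 genes tested, and 14 fell, against 23.1%. In WT 60 rose (all genes 19.3%) and 9 fell (20.8%). At 24 h, 88 rose and 12 fell in *lrx345* (all genes 27.5 and 26.4%), and 52 rose and 6 fell in WT (16.1 and 15.4%). More rose in *lrx345* than in WT over all genes too. At 72 h 96 rose and 8 fell in *lrx345* (34.4 and 33%), and 104 rose and 1, *WRKY54*, fell in WT (24.7 and 23.2%). In all of these comparisons the share of the 119 that rose was above, and the share that fell below, that of all genes. The rule favours genes with low WT levels, with a median of 2.32 CPM at 0 h, where a fall is hard to call. In 9 of the 119 genes no WT library at 0 h had more than 3 counts. The rule also used the 0 h libraries that every change is set against, and a low WT level there favours a rise in WT. The shares of all genes carry no such selection. How far these points set the shares that rose or fell in either genotype was not tested.

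The median change of the 119 genes was 0.63 in *lrx345* and 1.15 in WT at 6 h, 1.55 in *lrx345* and 0.99 in WT at 24 h, and 1.56 in *lrx345* and 2.49 in WT at 72 h (log2), and that of all genes tested was 0.01 in both at 72 h. In *lrx345* 61 genes rose at all 3 times and 7 fell at all 3, against 14.1 and 12.1% of all genes tested, and in WT 40 rose and 1 fell at all 3, against 6.84 and 6.05%. Genes that rose in both genotypes numbered 50 at 6 h, 47 at 24 h and 88 at 72 h, against 13.9, 11.5 and 18.3% of all genes tested. The highest mean level lay at 0, 6, 24 and 72 h for 9, 21, 43 and 46 genes in *lrx345* and for 3, 20, 2 and 94 genes in WT. These counts of highest levels were not taken over all genes, so nothing particular to the group is read from them. Scaling to library totals in place of TMM factors moved the median change over all genes in *lrx345* at 72 h by −0.18.

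Leaving out *lrx345* 0 h replicate 2 gave 84, 101 and 106 genes that changed in *lrx345* at 6, 24 and 72 h, against 79, 100 and 104 with it. Leaving out WT 72 h replicate 1 gave 73, 68 and 96 in WT, against 69, 58 and 105 with it. Without WT 0 h replicate 1 the count in WT at 24 h was 36. Leaving out *lrx345* 6 h replicate 1 gave 74 in *lrx345* at 6 h, leaving out WT 6 h replicate 1 gave 59 in WT at 6 h, and leaving out *lrx345* 24 h replicate 1 gave 96 in *lrx345* at 24 h.

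**Figure D4:**
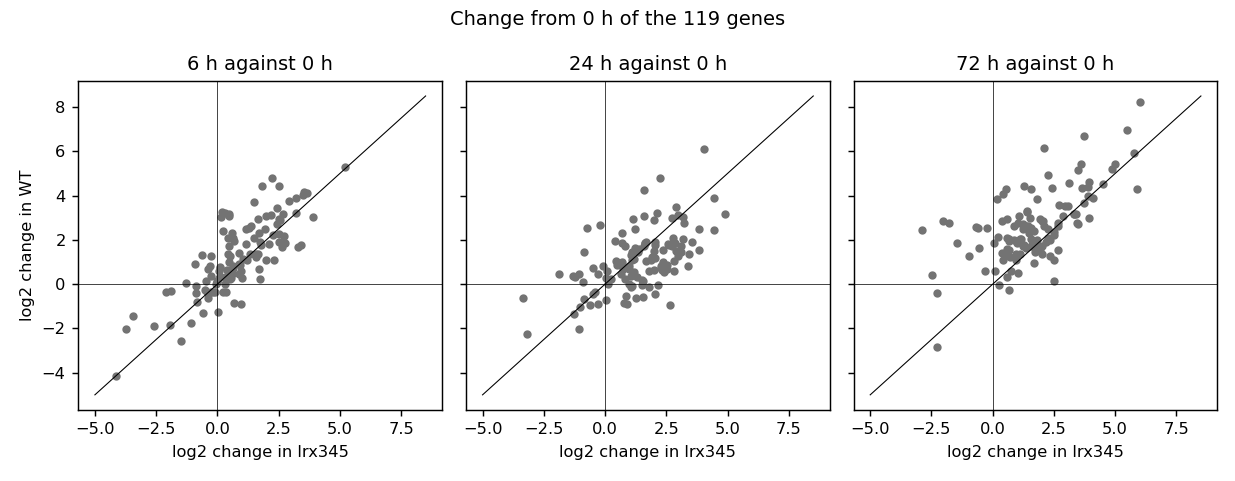
Change from 0 h (log2) of the 119 genes in WT (y axis) against that in *lrx345* (x axis) at 6, 24 and 72 h; points are genes and the diagonal marks equal change. Points below the diagonal, with the higher change in *lrx345*, number 41, 74 and 34 at 6, 24 and 72 h, against 49.1, 47.1 and 49.1% of all genes tested.

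The change in *lrx345* minus that in WT equals the genotype ratio at a time set against the ratio at 0 h, on the log2 scale. Both ratios chose the genes, so these differences are given as a description, with their SE and no p. The difference was above 0 for 41, 74 and 34 of the 119 genes at 6, 24 and 72 h, against 49.1, 47.1 and 49.1% of all genes tested. Its median over the 119 genes was −0.21, 0.46 and −0.73. It was past the threshold of the fit and positive for 5, 28 and 3 genes at these times, against 5.2, 9.55 and 15.3% of all genes tested, and negative for 8, 6 and 34, against 3.44, 8.28 and 16.9%; nothing is read from these counts.

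Among genes of jasmonate signalling, 6 of the 14 listed with a mean of at least 20 counts were in the group, namely *VSP2*, *JAZ10*, *VSP1*, *JAZ5*, *JAZ8* and *JAZ1*, together with 1 of 15 biosynthesis genes, *LOX3*. *VSP2*, a vegetative storage protein and jasmonate marker, had 42.5 and 46.9 CPM in *lrx345* at 0 h, 291, 265 and 225 CPM at 6 h, 397, 299 and 239 CPM at 24 h, and 880, 901 and 932 CPM at 72 h. WT seedlings had 3.51 and 2.33 CPM at 0 h, 25.6, 27 and 13.6 CPM at 6 h, 34.2, 31.6 and 30.2 CPM at 24 h, and 81.6, 65.5 and 43.4 CPM at 72 h. *VSP2* was lowest at 0 h and highest at 72 h in both genotypes, and its change at 72 h was 4.52 ± 0.27 in *lrx345* (adjusted p = 1.4e-12) and 4.51 ± 0.33 in WT (adjusted p = 1.82e-10).

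*JAZ10*, a repressor of MYC factors that jasmonate induces, had 23.7 and 21.4 CPM in *lrx345* and 3.20 and 2.40 CPM in WT at 0 h. Libraries at 24 h had 159, 175 and 141 CPM in *lrx345* and 7.87, 7.47 and 7.67 CPM in WT. *LOX3*, a lipoxygenase of jasmonate synthesis, had 42.0 and 54.9 CPM in *lrx345* and 8.62 and 10.2 CPM in WT at 0 h. The 24 h values were 323, 312 and 318 CPM in *lrx345* and 17, 24.3 and 15.6 CPM in WT. Both genes had more than 4 times the 0 h level in *lrx345* at 24 h, where the change in *lrx345* minus that in WT was 1.41 ± 0.45 for *JAZ10* and 1.76 ± 0.37 for *LOX3*. At 72 h these differences were −0.60 ± 0.41 for *JAZ10* and 0.05 ± 0.37 for *LOX3*. *JAZ8* had 0.153 and 0.145 CPM in WT at 0 h and 11.6, 5.81 and 2.17 CPM at 72 h, 45.5 times as much in pooled counts with a counting interval of 17.6 to 168.

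Of the 14 listed signalling genes, 11, 14 and 11 rose and 3, 0 and 2 fell in *lrx345* at 6, 24 and 72 h, and 8, 7 and 13 rose and 1, 0 and 0 fell in WT. Of the 15 biosynthesis genes 10, 11 and 9 rose and 2, 2 and 3 fell in *lrx345*, and 9, 4 and 14 rose and none fell in WT. Over all genes tested 23.9, 27.5 and 34.4% rose in *lrx345* and 19.3, 16.1 and 24.7% in WT. The shares that fell were 23.1, 26.4 and 33% in *lrx345* and 20.8, 15.4 and 23.2% in WT. *JRG21*, a jasmonate oxidase that inactivates the hormone, had 47.0 and 55.3 CPM in *lrx345* at 0 h, 184, 155 and 105 CPM at 6 h, 485, 353 and 303 CPM at 24 h, and 2128, 1801 and 2032 CPM at 72 h. The WT libraries had 0.763 and 0.800 CPM at 0 h, 10.4, 9.54 and 10.7 CPM at 6 h, 6.17, 8.53 and 5.53 CPM at 24 h, and 166, 69.9 and 46.4 CPM at 72 h. It rose at 72 h by 5.46 ± 0.40 in *lrx345* (adjusted p = 4.68e-11) and 6.96 ± 0.56 in WT (adjusted p = 1.24e-09). *AT2G38240*, an oxidase of the same small family, rose in *lrx345* by 4.44 ± 0.52 at 24 h (adjusted p = 1.9e-07) and 5.76 ± 0.53 at 72 h (adjusted p = 2.06e-09).

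*TAT3*, a tyrosine aminotransferase, rose at 6 h by 1.30 ± 0.23 in *lrx345* (adjusted p = 6.95e-05) and 2.53 ± 0.27 in WT (adjusted p = 7.55e-08). *FAMT*, a methyltransferase of farnesoic acid, rose at 24 h by 3.16 ± 0.32 in *lrx345* (adjusted p = 1.94e-08) and 2.03 ± 0.44 in WT (adjusted p = 0.00112). *TI1*, a trypsin inhibitor, rose at 72 h by 1.35 ± 0.29 in *lrx345* (adjusted p = 0.000281) and 2.64 ± 0.37 in WT (adjusted p = 4.08e-06). All 3 genes rose in both genotypes at 72 h. *VSP1*, the neighbour of *VSP2*, had 69.4 and 58.2 CPM in *lrx345* and 11.7 and 14.9 CPM in WT at 0 h. At 72 h it had 293, 368 and 300 CPM in *lrx345* and 29.8, 29.1 and 21.6 CPM in WT, and the difference of the changes was 1.43 ± 0.28.

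The 3 defensin genes of the group fell in *lrx345* and rose in WT at 72 h. Defensins are small antifungal peptides, and 3 of 9 listed genes were in the group, *PDF1.2*, *PDF1.2c* and *PDF1.3*. *PDF1.2* had 147 and 143 CPM in *lrx345* at 0 h, 65.0, 91.3 and 87.4 CPM at 6 h, 112, 60.2 and 45.7 CPM at 24 h, and 29.8, 28.8 and 35.5 CPM at 72 h. In WT it had 0.687 and 0.436 CPM at 0 h, 0.947, 0.187 and 0.340 CPM at 6 h, 1.07, 0.388 and 0.316 CPM at 24 h, and 7.06, 3.28 and 1.01 CPM at 72 h. Every *lrx345* library at 72 h was below both at 0 h and every WT library at 72 h above both at 0 h. *PDF1.2* fell in *lrx345* at 72 h by 2.03 ± 0.30 (adjusted p = 3.25e-06) and rose in WT by 2.84 ± 0.80 (adjusted p = 0.00515), a difference of −4.87 ± 0.81. The difference was −5.34 ± 0.70 for *PDF1.3* and −4.56 ± 0.78 for *PDF1.2c*. The WT rises at 72 h each lost the threshold without single libraries: *PDF1.2* without WT 72 h replicate 1 (1.95, adjusted p = 0.0648) or the unnumbered WT 0 h library (2.57, adjusted p = 0.0537), *PDF1.3* without WT 72 h replicate 1 (1.59, adjusted p = 0.0767) or WT 0 h replicate 1 (2.03, adjusted p = 0.0649), and *PDF1.2c* without the unnumbered WT 0 h library (1.99, adjusted p = 0.0885). *PDF1.2* and *PDF1.2c* share 92.2% of their aligned transcript bases and *PDF1.2* and *PDF1.3* 88.5%, and of the windows of 50 exon bases 3 of 340 in *PDF1.2*, 3 of 355 in *PDF1.2c* and 28 of 397 in *PDF1.3* recurred elsewhere in the genome. Of the 9 defensin genes, 7, 8 and 8 fell in *lrx345* at 6, 24 and 72 h and none rose, and 3, 3 and 3 fell in WT, where 5 rose at 72 h. Falls made up 23.1, 26.4 and 33% of all genes tested in *lrx345* and 20.8, 15.4 and 23.2% in WT. Rises made up 23.9, 27.5 and 34.4% in *lrx345* and 24.7% in WT at 72 h.

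**Figure D5:**
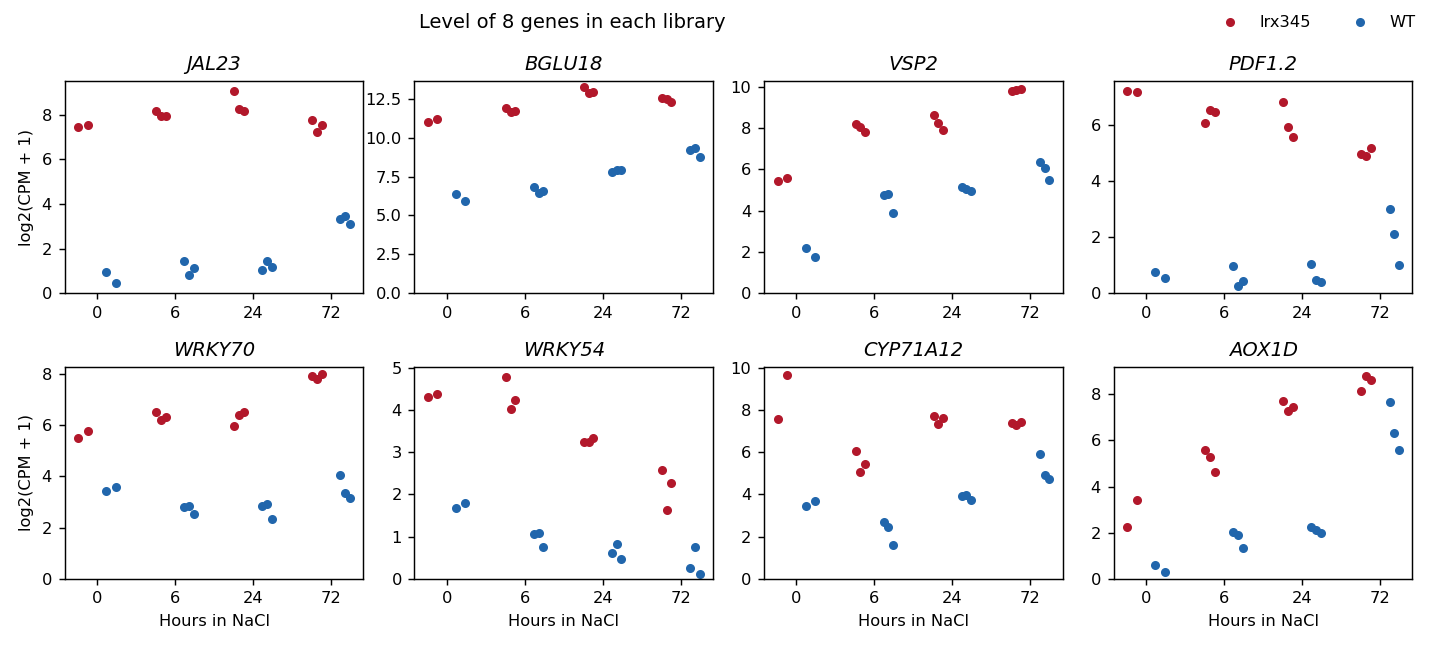
Level, as log2(CPM + 1), of 8 genes in each library against hours in NaCl; red points are *lrx345* and blue points WT libraries. *PDF1.2* lies between 28.8 and 35.5 CPM in *lrx345* and between 1.01 and 7.06 CPM in WT at 72 h, and *CYP71A12* has 1 *lrx345* library at 0 h, with 803 CPM, far above the other.

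Salicylate genes were represented by 4 of 17, *GRX480*, *CBP60G*, *SARD1* and *AT4G10500*, and by 1 of 3 genes of pipecolic acid synthesis, *FMO1*, the enzyme that makes N-hydroxypipecolic acid. *GRX480*, a glutaredoxin that binds TGA transcription factors, had 14.2 and 15.1 CPM in *lrx345* and 0.992 and 1.09 CPM in WT at 0 h. Its level at 6 h was 217, 175 and 131 CPM in *lrx345* and 25.6, 19 and 11.1 CPM in WT. It rose at 6 h in both, by 3.54 ± 0.39 in *lrx345* (adjusted p = 9.92e-08) and 4.16 ± 0.60 in WT (adjusted p = 6.97e-06). *SARD1*, whose window is printed above, had 40.5 and 50.3 CPM in *lrx345* and 8.16 and 8.21 CPM in WT at 0 h. Libraries at 24 h had 139, 180 and 198 CPM in *lrx345* and 12.8, 16.1 and 8.77 CPM in WT. The change of *SARD1* in *lrx345* minus that in WT was 1.37 ± 0.32 at 24 h.

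*AT4G10500*, known as a salicylate hydroxylase that turns the hormone over, had 29.6 and 56.6 CPM in *lrx345* and 0.992 and 1.74 CPM in WT at 0 h. The 6 h values were 71.7, 42.2 and 50.6 CPM in *lrx345* and 11.6, 13.7 and 12.6 CPM in WT. The *lrx345* libraries at 6 h overlapped those at 0 h and the WT libraries did not, and the difference of the changes was −2.88 ± 0.46. At 72 h *AT4G10500* had 196, 136 and 183 CPM in *lrx345* and 5.18, 4.46 and 5.11 CPM in WT, a ratio of 29.2. *FMO1* ranged from 42.6 to 89.0 CPM over all *lrx345* libraries and from 2.25 to 10.5 CPM over all WT libraries. *CBP60G*, the partner of *SARD1*, rose at 24 h by 1.99 ± 0.31 in *lrx345* (adjusted p = 1.08e-05) and 1.50 ± 0.39 in WT (adjusted p = 0.00483; 1.34 and 0.0662 without WT 0 h replicate 1). Of the 17 listed salicylate genes, 6, 9 and 8 rose and 3, 3 and 6 fell in *lrx345* at 6, 24 and 72 h, and 5, 5 and 10 rose and 4, 2 and 1 fell in WT. The shares of all genes tested were 23.9, 27.5 and 34.4% rising and 23.1, 26.4 and 33% falling in *lrx345*. In WT they were 19.3, 16.1 and 24.7% rising and 20.8, 15.4 and 23.2% falling.

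The indole and camalexin list gave 3 of 11 genes, *CYP71A12*, *CYP82C2* and *AT1G26380*, which act in a branch that makes indole carbonyl nitriles. *CYP71A12* had 191 and 803 CPM in *lrx345* at 0 h, 66.4, 32 and 42.7 CPM at 6 h, 211, 160 and 193 CPM at 24 h, and 163, 154 and 170 CPM at 72 h. The WT libraries had 9.99 and 12.1 CPM at 0 h, 5.39, 4.40 and 2.04 CPM at 6 h, 14.1, 14.8 and 12.3 CPM at 24 h, and 60.1, 29.4 and 25.4 CPM at 72 h. Both genotypes were lowest at 6 h, and *lrx345* 0 h replicate 2 stood far above the other library. *CYP71A12* fell at 6 h by 3.45 ± 0.40 in *lrx345* (adjusted p = 1.69e-07); its change in WT, −1.46 ± 0.57 (adjusted p = 0.0445), lost the threshold when any of 11 libraries was left out. Without *lrx345* 0 h replicate 2 its change in *lrx345* at 6 h was −2.05 and stayed past the threshold, whereas the change at 24 h was 0.14, against −1.31 with it.

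*AT1G26380* had 38.3 and 127 CPM in *lrx345* and 5.57 and 4.58 CPM in WT at 0 h. At 6 h it had 6.22, 6.69 and 5.87 CPM in *lrx345* and 1.89, 0.749 and 0.936 CPM in WT, and it fell in both, by 3.75 ± 0.38 in *lrx345* (adjusted p = 2.36e-08) and 2.01 ± 0.63 in WT (adjusted p = 0.0135; −1.88 and 0.0747 without WT 0 h replicate 1). Without *lrx345* 0 h replicate 2 the changes of *AT1G26380* in *lrx345* at 6, 24 and 72 h were −2.63, 0.29 and 0.15. *CYP82C2* fell in *lrx345* at 6 h by 4.15 ± 0.56 (adjusted p = 2.77e-06), or by 2.77 without that library; it had no count in any WT library at 6 h. On the list of 11, 1, 6 and 2 genes rose and 7, 3 and 5 fell in *lrx345* at 6, 24 and 72 h, and 2, 3 and 8 rose and 4, 0 and 0 fell in WT. Among all genes tested, 23.9, 27.5 and 34.4% rose and 23.1, 26.4 and 33% fell in *lrx345*. For WT the shares were 19.3, 16.1 and 24.7% rising and 20.8, 15.4 and 23.2% falling.

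Among transcription factors, 10 of 54 WRKY genes were in the group, *WRKY51*, *WRKY38*, *WRKY70*, *WRKY62*, *WRKY59*, *WRKY75*, *WRKY54*, *WRKY33*, *WRKY46* and *WRKY8*, and of these 7, 8 and 8 rose and 1, 2 and 2 fell in *lrx345* at 6, 24 and 72 h, and 6, 2 and 4 rose and 3, 2 and 1 fell in WT. Over the 54 WRKY genes 32, 36 and 41 rose and 4, 5 and 5 fell in *lrx345*, and 21, 19 and 29 rose and 10, 5 and 2 fell in WT, beside 23.9, 27.5 and 34.4% of all genes tested that rose in *lrx345* and 19.3, 16.1 and 24.7% in WT. Falling genes were 23.1, 26.4 and 33% of all genes tested in *lrx345* and 20.8, 15.4 and 23.2% in WT. *WRKY70*, a regulator that balances salicylate and jasmonate responses, had 44.6 and 53.4 CPM in *lrx345* at 0 h, 91.9, 72.8 and 79.1 CPM at 6 h, 62.5, 82.7 and 91.2 CPM at 24 h, and 245, 226 and 256 CPM at 72 h. Levels in WT were 9.77 and 11.1 CPM at 0 h, 5.97, 6.18 and 4.85 CPM at 6 h, 6.26, 6.50 and 4.03 CPM at 24 h, and 15.5, 9.26 and 7.90 CPM at 72 h. *WRKY70* rose at 6 h in *lrx345* by 0.70 ± 0.18 (adjusted p = 0.00249) while it fell in WT by 0.87 ± 0.24 (adjusted p = 0.00618). Without *lrx345* 0 h replicate 1 the change in *lrx345* was 0.55 (adjusted p = 0.0632), and without the unnumbered WT 0 h library the change in WT was −0.75 (adjusted p = 0.0716), neither past the threshold. The change in *lrx345* lay above that in WT by 1.57 ± 0.30, 1.65 ± 0.30 and 2.36 ± 0.28 at 6, 24 and 72 h.

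Its closest relative *WRKY54* had 18.7 and 19.7 CPM in *lrx345* at 0 h, 26.7, 15.4 and 17.8 CPM at 6 h, 8.49, 8.53 and 9.17 CPM at 24 h, and 4.98, 2.11 and 3.80 CPM at 72 h. The WT libraries had 2.21 and 2.47 CPM at 0 h, 1.09, 1.12 and 0.681 CPM at 6 h, 0.536, 0.776 and 0.395 CPM at 24 h, and 0.202, 0.673 and 0.0774 CPM at 72 h. Unlike *WRKY70* it fell in both genotypes at 72 h, by 2.25 ± 0.27 in *lrx345* (adjusted p = 1.18e-07) and 2.85 ± 0.52 in WT (adjusted p = 8.63e-05). *WRKY62* fell in *lrx345* at 72 h by 2.29 ± 0.24 (adjusted p = 1.47e-08). *WRKY38* had 16.7 and 20.1 CPM in *lrx345* and 2.06 and 2.04 CPM in WT at 0 h. Its level at 6 h was 237, 194 and 177 CPM in *lrx345* and 8.23, 6.46 and 6.13 CPM in WT, and the difference of the changes was 1.65 ± 0.40. *WRKY59* had a single count over the WT libraries at 0 h and 38 at 6 h, a ratio of 28.2 with a counting interval of 4.77 to 1144.

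*WRKY33*, an activator of camalexin synthesis genes, had 153 and 221 CPM in *lrx345* and 59.4 and 54.2 CPM in WT at 0 h. Libraries at 24 h had 1127, 1427 and 1569 CPM in *lrx345* and 111, 164 and 121 CPM in WT, and the difference of the changes was 1.70 ± 0.35. *STZ*, a zinc-finger repressor induced by salt, had 23.6 and 30.6 CPM in *lrx345* at 0 h, 170, 155 and 149 CPM at 6 h, 243, 294 and 262 CPM at 24 h, and 194, 263 and 260 CPM at 72 h. In WT *STZ* had 7.63 and 7.92 CPM at 0 h, 33.4, 26.4 and 26.1 CPM at 6 h, 17.4, 12.4 and 10.4 CPM at 24 h, and 112, 56.0 and 29.7 CPM at 72 h. The *lrx345* libraries were higher at 24 h than at 6 h and the WT libraries lower, and the difference of the changes from 0 h was 2.57 ± 0.50 at 24 h. Of other listed families, 1 of 53 NAC (*NAC042*), 2 of 76 MYB (*MYB47* and *MYB113*) and 1 of 29 ERF genes (*ERF6*) were in the group. *ERF6* rose at 24 h by 3.42 ± 0.26 in *lrx345* (adjusted p = 3.43e-10) and 1.34 ± 0.30 in WT (adjusted p = 0.00143), a difference of 2.08 ± 0.39. *NAC042* fell in *lrx345* at 24 h by 1.24 ± 0.29 (adjusted p = 0.000978), but its change was −0.27 and not past the threshold without *lrx345* 0 h replicate 2.

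The largest rises in *lrx345* at 72 h were those of *AOX1D* and *ELI3-2*, followed by *AT2G38240*. *AOX1D*, an alternative oxidase of mitochondria, had 3.72 and 9.70 CPM in *lrx345* at 0 h, 47.4, 37.6 and 23.6 CPM at 6 h, 211, 155 and 171 CPM at 24 h, and 277, 437 and 393 CPM at 72 h. WT seedlings had 0.534 and 0.218 CPM at 0 h, 3.06, 2.71 and 1.53 CPM at 6 h, 3.75, 3.39 and 2.92 CPM at 24 h, and 203, 79.1 and 47.5 CPM at 72 h. The 3 WT libraries at 72 h spread widely, and WT 72 h replicate 1 was the highest. *AOX1D* rose at 72 h by 6.00 ± 0.52 in *lrx345* (adjusted p = 5.64e-10) and 8.22 ± 0.74 in WT (adjusted p = 6.13e-09). *ELI3-2*, annotated as a cinnamyl alcohol dehydrogenase, had 3.19 and 5.94 CPM in *lrx345* and 0.153 and 0.436 CPM in WT at 0 h. The 72 h values were 222, 227 and 249 CPM in *lrx345* and 9.42, 4.71 and 3.17 CPM in WT, where its ratio of 34.5 was the highest of the 119.

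*NUDT8*, a nudix hydrolase, had 15.2 and 17.5 CPM in *lrx345* at 0 h, 19.9, 15.9 and 14.4 CPM at 6 h, 109, 88.8 and 85.0 CPM at 24 h, and 21, 36.4 and 30.4 CPM at 72 h, against 3.81 and 5.31 CPM in WT at 0 h and 1.66 to 8.81 CPM in the WT libraries under salt. Its level in *lrx345* stood out at 24 h, and the change there was above that in WT by 3.58 ± 0.44. *MSRB7*, a methionine sulfoxide reductase, had 60.8 and 66.7 CPM in *lrx345* and 22.7 and 14.4 CPM in WT at 0 h. At 6 h it had 244, 228 and 176 CPM in *lrx345* and 26.4, 23.1 and 13.9 CPM in WT, a difference of changes of 1.51 ± 0.37, and at 72 h the difference was 1.05 ± 0.37. At 24 h the change of *MSRB7* was 0.89 ± 0.25 in *lrx345* (adjusted p = 0.00465) and −0.89 ± 0.30 in WT (adjusted p = 0.0265). Neither stayed past the threshold in all repeats: it was 0.81 in *lrx345* without *lrx345* 0 h replicate 1 (adjusted p = 0.0535), and in WT −0.55, −0.74 and −0.86 without WT 0 h replicate 1, WT 24 h replicate 2 and WT 24 h replicate 3. The glutathione transferase *GSTU4* had 48.3 and 60.5 CPM in *lrx345* and 2.98 and 3.27 CPM in WT at 0 h. Its level at 6 h was 96.3, 56.7 and 43.7 CPM in *lrx345* and 17.1, 16.4 and 16 CPM in WT. It rose in WT at 6 h by 2.41 ± 0.41 (adjusted p = 4.5e-05) and the change in *lrx345* was lower (difference −2.19 ± 0.49). *PLA2A*, a patatin-like lipase, fell at 6 h by 2.60 ± 0.38 in *lrx345* (adjusted p = 5.97e-06) and 1.88 ± 0.52 in WT (adjusted p = 0.00577), and rose at 72 h by 1.93 ± 0.37 in *lrx345* (adjusted p = 8e-05) and 2.95 ± 0.43 in WT (adjusted p = 5.23e-06). *PCR2*, a membrane protein linked to cadmium and zinc transport, fell in WT by 0.82 ± 0.20 at 6 h (adjusted p = 0.00218) and 0.91 ± 0.20 at 24 h (adjusted p = 0.00147). In *lrx345* *PCR2* fell by 0.83 at 6 h (adjusted p = 0.000721) and rose by 0.59 at 72 h (adjusted p = 0.00808). The 6 h change was −0.46 without *lrx345* 0 h replicate 2, and the 72 h change was 0.28 without *lrx345* 0 h replicate 1.

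The 3 largest rises in *lrx345* at 6 h were those of a pair of proteases and a calcium sensor. *AT1G32970*, a subtilisin-like protease, had 3.66 and 3.06 CPM in *lrx345* and 0.381 and 0.218 CPM in WT at 0 h. Libraries at 6 h had 150, 134 and 99 CPM in *lrx345* and 13, 11.4 and 11.1 CPM in WT. It rose at 6 h by 5.20 ± 0.20 in *lrx345* (adjusted p = 3.99e-15) and 5.28 ± 0.34 in WT (adjusted p = 1.68e-11). *AT5G19110*, an aspartyl protease family gene, rose in *lrx345* at 6 h by 3.91 ± 0.20 (adjusted p = 2.8e-13), and *CML37*, a calmodulin-like calcium sensor, by 3.67 ± 0.34 (adjusted p = 7.27e-09). The subtilase gene *SBT3.3* had 0 and 0.145 CPM in WT at 0 h, 2 counts in all, and 2.77, 2.23 and 1.98 CPM at 24 h, a ratio of 31.1 with a counting interval of 8.32 to 261, and in *lrx345* it had 3.06 and 3.32 CPM at 0 h and 14.7, 14.9 and 12.1 CPM at 24 h. Its difference of changes at 24 h, −2.58 ± 0.88, rests on those 2 counts.

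*AT3G28220*, the TRAF-like gene with the G boxes, had 73.4 and 97.2 CPM in *lrx345* and 1.22 and 0.291 CPM in WT at 0 h. The 24 h values were 1328, 1346 and 1242 CPM in *lrx345* and 51.3, 46.8 and 52.5 CPM in WT. It rose at 24 h by 4.03 ± 0.23 in *lrx345* (adjusted p = 2.86e-12) and 6.10 ± 0.36 in WT (adjusted p = 1.16e-11), and the change in WT was the larger at both 24 and 72 h. The size of the WT changes rests on 16 and 4 counts at 0 h. *AT3G28270*, of unknown function, had 4.59 and 5.42 CPM in *lrx345* and 0.839 and 0.800 CPM in WT at 0 h. At 24 h it had 25, 22 and 14.6 CPM in *lrx345* and 0.894, 1.36 and 0.158 CPM in WT, a difference of changes of 2.20 ± 0.67. The kinase gene *AT1G67000* had 7.78 and 17.1 CPM in *lrx345* and 0.305 and 0.0727 CPM in WT at 0 h. Its level at 6 h was 21.1, 16.5 and 14.3 CPM in *lrx345* and 1.38, 1.87 and 1.79 CPM in WT. Its change was lower in *lrx345* than in WT at 6 h (difference −2.64 ± 0.72) and at 24 h (difference −2.85 ± 0.74), with few WT counts at 0 h. The peroxidase gene *AT1G14550* had 4.85 and 26.4 CPM in *lrx345* and 0.305 and 0.145 CPM in WT at 0 h. Libraries at 24 h had 6.88, 9.58 and 9.44 CPM in *lrx345* and 1.61, 0.970 and 1.34 CPM in WT (difference −3.28 ± 1.08).

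Further named members are given by their ranges over the libraries of a genotype. *PGL5*, a 6-phosphogluconolactonase, ranged from 34.6 to 218 CPM in *lrx345* and 0.681 to 8.81 CPM in WT, and *AT1G54020*, a GDSL-type lipase gene, from 34.7 to 106 CPM in *lrx345* and 0.218 to 4.91 CPM in WT. The senescence list gave 2 of 4 genes: *SAG13*, which ranged from 25.9 to 195 CPM in *lrx345* and 0.610 to 35.3 CPM in WT, and *BCB*, a blue copper protein, from 89.2 to 848 CPM in *lrx345* and 14.6 to 224 CPM in WT. The other genes of these 4, *SAG29* and *NAC6*, were not in the group. *SAG29* averaged 0.596, 9.27, 13.9 and 23.5 CPM in *lrx345* at 0, 6, 24 and 72 h. Its WT means were 2.05, 30.1, 18.6 and 1.70 CPM. *NAC6* averaged 16.5 and 29.1 CPM in *lrx345* and 19.6 and 28.5 CPM in WT at 0 and 6 h. Its mean was higher in *lrx345* than in WT at 24 and 72 h, with 71.0 and 38.4 CPM at 72 h. *SAG12*, the marker of developmental leaf senescence, had no count in any library. *PROPEP3*, the danger peptide precursor, ranged from 13.1 to 59.3 CPM in *lrx345* and 1.43 to 11.6 CPM in WT, and was the single gene of 17 for pattern recognition. Of 44 listed receptor-like protein genes 2 were in the group, *RLP53*, which ranged from 6.25 to 31.9 CPM in *lrx345* and 0.340 to 1.48 CPM in WT, and *RLP24*, from 3.67 to 23.2 CPM in *lrx345* and 0.340 to 3.90 CPM in WT. *GSTU11* was, with *GSTU4*, one of 2 in 38 listed tau and phi glutathione transferases, *UGT71B5* the single one of 48 sugar transferases, and *CYP706A2* made up, with the pair named above, 3 of 146 cytochrome P450 genes.

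Several lists had no gene in the group, which held 0.623% of the 19116 genes. They were 34 CRK and 11 WAK receptor kinases, 11 MLO genes, and 26 XTH, 18 expansin and 8 pectin methylesterase genes of the cell wall. At that share, lists of this size are too short to read anything from an absence. The ratio was met at 1 time or more by 13 CRK, 6 WAK, 2 MLO and 4 XTH genes and by no expansin or pectin methylesterase gene. None of 8 listed PR and chitinase genes met the ratio at every time, although 6 of them met it at 0 h and all 8 at 1 time or more. *CHI* (AT2G43570), annotated as a chitinase but not listed, was in the group with ratios of 13.2, 6.20, 7.28 and 3.45 at 0, 6, 24 and 72 h.

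The 119 genes lay on all 5 chromosomes, with 39, 20, 16, 12 and 32 on chromosomes 1 to 5. These were 0.78, 0.69, 0.43, 0.41 and 0.72% of the genes there with a mean of at least 20 counts. Of the 119 genes, 21 lay in 10 runs of neighbours with at most 2 other genes between them, a count not taken over all genes. Among these, *AT1G52000*, *MBP2* and *MBP1* spanned chr1:19333159-19352782, and *BGLU18* lay beside *TSA1*, a gene for an ER body protein, at chr1:19515143-19525624. The *VSP2* and *VSP1* genes spanned chr5:8500476-8508957, and *PDF1.2* and *PDF1.2c* chr5:17907069-17909507. Some neighbours also share sequence: *VSP2* and *VSP1* were 90.8% identical and *MBP1* and *MBP2* 85.5% identical over their aligned transcripts. For 90 of the 119 genes no window of 50 exon bases recurred elsewhere in the genome, and for 7 more than 10% of windows did, led by *CYP706A2* (62.8%) and including *MSRB7* (21.5%) and *RLP53* (13.5%); counts of these are uncertain, since fragments that mapped to several places were not counted.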

How the data were processed

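RNA-seq was carried out on 22 libraries of total RNA from whole seedlings, in 8 groups of genotype and time taken from the labels. The unnumbered WT 0 h library took its group from its column header, since its replicate number there matches no WT 0 h label. The authors aligned read pairs to TAIR10 with TopHat2 after a FastQC check and counted them per gene with featureCounts 1.4.6 on exons, with no strand option stated, so overlapping and antisense genes cannot be told apart; the deposited values are raw counts per gene and were used as deposited. Per-library depth was 7413461 to 15047080 counts.

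CPM were computed from column totals to choose the genes. Salt contrasts were tested with edgeR 4.0.16 (R 4.3.3; glmQLFit and glmQLFTest, TMM factors, filterByExpr, 21831 genes) in one model of 8 groups, with Benjamini-Hochberg adjustment over all genes and an adjusted p threshold of 0.05; all 119 genes passed the filter, which their *lrx345* level alone could satisfy. SE is the change divided by the square root of F and is approximate. Counting intervals are exact conditional 95% intervals for pooled counts and cover counting error only. The code was tested on simulated data. The study's own test needs reads and was not used here. Sequences, gene names and gene starts came from RefSeq (TAIR10.1), in which all 119 genes matched.

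The genes, the lists and the rules were chosen with earlier results of these data known. Genes were named where they were among the 15 with the largest lowest ratio, on a listed pathway or family, among the 3 largest changes in a direction in a genotype and time with no overlap of libraries, just inside or outside the threshold, or among the 3 largest differences of changes; other genes named, *TPS04*, *ABCG40*, *NIT2*, *TSA1*, *AT1G52000* and *CHI*, were chosen after their values were seen. Alternatives were DESeq2 1.42.0, other scaling, other filters, other ratio limits, a replicate block (without the unnumbered WT 0 h library) and leaving out each library.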

Additional observations from a re-analysis of the deposited data

Results flagged for a closer look

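The genes below are those whose change from 0 h in *lrx345* lay furthest from that in WT among the genes past the threshold of the fit for this difference (edgeR's quasi-likelihood test). The difference is made of the genotype ratios that chose the genes, so it is a description and no p is given. They are the 3 with the largest positive and the 3 with the largest negative such difference at each time. Values are the change in *lrx345* minus that in WT, in log2 with SE.

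At 6 h the positive ones were *WRKY38* (1.65 ± 0.40), *WRKY70* (1.57 ± 0.30) and *MSRB7* (1.51 ± 0.37). The negative ones were *AT4G10500* (−2.88 ± 0.46), *AT1G67000* (−2.64 ± 0.72) and *GSTU4* (−2.19 ± 0.49).

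At 24 h they were *NUDT8* (3.58 ± 0.44), *STZ* (2.57 ± 0.50) and *AT3G28270* (2.20 ± 0.67) on the positive side. On the negative side were *AT1G14550* (−3.28 ± 1.08), *AT1G67000* (−2.85 ± 0.74) and *SBT3.3* (−2.58 ± 0.88), all 3 with at most 6 counts over the WT libraries at 0 h.

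At 72 h *WRKY70* (2.36 ± 0.28), *VSP1* (1.43 ± 0.28) and *MSRB7* (1.05 ± 0.37) were the positive ones. The negative ones were the 3 defensin genes *PDF1.3* (−5.34 ± 0.70), *PDF1.2* (−4.87 ± 0.81) and *PDF1.2c* (−4.56 ± 0.78). In the next part the leave-one-out and other alternatives are pooled over all named genes and contrasts, and are not counted for each of these pairs.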

How the results depend on the processing

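The rule gave 119 genes, 329 with a lowest ratio of 2 and 56 with a lowest ratio of 4, and 106 to 142 when 1 library was left out. The counts of genes changed by salt stayed within 1.5 times their value when libraries were left out in turn for WT at 6 h (52 to 73, against 69) and 72 h (95 to 106, against 105) and for *lrx345* at 6 h (67 to 84, against 79), 24 h (94 to 101, against 100) and 72 h (89 to 107, against 104); for WT at 24 h the range was 36 to 68, against 58. For the difference of changes, a count from which nothing is read since the ratios chose the genes, the ranges were 5 to 20 at 6 h, against 13 (5 without WT 0 h replicate 1, 7 without the unnumbered WT 0 h library and 20 without WT 72 h replicate 1), 19 to 40 at 24 h, against 34 (19 without the unnumbered WT 0 h library), and 26 to 47 at 72 h, against 37. At 6 h the count was also 22 with no filter on low counts and 20 with only the groups compared in the fit. Where 1 library was left at 0 h, it was assumed to vary like the other groups. The cause of these shifts was not tested. Genes counted as changed by salt are those that changed from 0 h, where salt, age and time of day cannot be told apart.

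With the replicate number as a block, 8 genes differed at 6 h and 22 at 24 h, and the counts were 53, 42 and 100 in WT, 80 in *lrx345* at 6 h, and 32 for the difference at 72 h. Same-numbered libraries correlated by 0.0956 to 0.145 at 6 h, where each library correlated best with its own number and different numbers gave −0.105 to −0.0043, a hint from the data at that time. The correlations of same-numbered libraries were −0.146 to −0.0226 at 24 h and −0.185 to 0.092 at 72 h. The labels do not say what a number stands for, so the numbers were not taken to pair libraries. For the 70 named genes, 381 pairs of gene and contrast were called, 324 to 400 with a library left out and 334 to 415 under the other settings. Over the 29 settings 10655 of the repeated calls kept direction and threshold, 390 kept only the direction and 3 reversed, all without *lrx345* 0 h replicate 2: in *lrx345*, *AT1G26380* had 0.29 at 24 h and 0.15 at 72 h, and *CYP71A12* 0.14 at 24 h. Without *lrx345* 0 h replicate 1 these values were −1.52, −1.61 and −2.02. Column totals in place of TMM factors were added after seeing the data. Low WT counts limit the precision of WT changes: 9 of the 119 genes had at most 3 counts in each WT library at 0 h.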

Other observations

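*TPS04*, the synthase of geranyllinalool from which the volatile TMTT is made, had one of the widest spans of the ratio, chosen for mention after its values were seen. It had 64.4 and 98.8 CPM in *lrx345* at 0 h, 73.1, 50.2 and 39.6 CPM at 6 h, 454, 363 and 312 CPM at 24 h, and 279, 284 and 370 CPM at 72 h. In WT it had 0.534 and 0.945 CPM at 0 h, 1.60, 3.27 and 0.851 CPM at 6 h, 1.07, 1.65 and 0.790 CPM at 24 h, and 80.4, 45.8 and 28.9 CPM at 72 h. *TPS04* rose (edgeR's F test, Benjamini-Hochberg) in *lrx345* at 24 h by 2.31 ± 0.32 (adjusted p = 1.99e-06) and in WT at 72 h by 6.16 ± 0.54 (adjusted p = 4.47e-09), while the WT libraries at 24 h overlapped those at 0 h.

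*NIT2*, a nitrilase, had 2021, 1872 and 1960 CPM in *lrx345* and 436, 226 and 246 CPM in WT at 72 h, and rose from 0 h in both, by 3.95 ± 0.25 in *lrx345* and 4.60 ± 0.27 in WT. *ABCG40*, an abscisic acid importer, rose at 72 h by 3.91 ± 0.34 in *lrx345* and 3.97 ± 0.39 in WT. *AT1G52000*, a lectin gene in the same run of neighbours as *MBP2*, had a change of 0.42 ± 0.15 in *lrx345* and rose by 4.07 ± 0.19 in WT at 72 h (adjusted p = 1.74e-13 in WT). *TSA1*, the neighbour of *BGLU18*, rose by 1.60 ± 0.19 in *lrx345* at 24 h and 2.78 ± 0.21 in WT at 72 h. These genes too were named after their values were seen.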
